A study of Mus musculus with 2 samples.

Results

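Chromatin loops were listed in V6.5 cells, a male mouse embryonic stem cell line, by Micro-C, which digests crosslinked chromatin with micrococcal nuclease, ligates fragments that lie together and sequences them. The group, siControl, holds 2 samples of wild-type cells that received the siGLO control siRNA reagent at 50 nM and were collected 48 hours later. A single list of 4982 loops stands for both samples, 4858 of them on chromosomes 1 to 19. It gives no value per sample, so no spread between replicates exists and no comparison of conditions was made, and read depth is unknown. The list holds contacts and no expression, so the cell type could not be checked against its markers, and 1 cell line limits what the list stands for.

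Each loop joins 2 anchors of 5, 10 or 25 kb, the pixel size at which it was called. Merging anchors with 1 or more bases in common gave 8507 merged anchors. The one-way shared anchors described here are the 919 of them (10.8%) that held 2 or more loops, all toward lower or all toward higher coordinates. Of the rest, 126 had loops to both sides and 7462 had 1 loop. The positions of the loops chose these anchors, so their loop numbers and directions are descriptions and were not tested. The nearest case outside the rule is an anchor with 1 loop, and 810 of the 919 stand just inside it with 2. Intervals given with shares are 95% Wilson intervals, and those of differences are 95% Newcombe intervals. They treat anchors or genes as independent and cover counting error only.

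In mammalian cells cohesin is thought to extrude chromatin loops until it meets CTCF, a zinc finger protein bound to an asymmetric DNA motif. Loop anchors tend to hold CTCF motifs that point into the loop, so that the motifs at the 2 ends of a loop face each other. An anchor whose loops all run one way and end at successive distances holds a nested set of loops. Whether such anchors also form stripes in the contact map was not examined. Genes of developmental regulators often lie in large gene-poor regions over which their enhancers are spread.

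CTCF-like letters could be looked for only where a promoter sequence was given, 250 bases before to 50 bases after a gene start in RefSeq (GRCm38.p6). The core searched, on both strands, was C, C, A, any 2 bases, A, G, any 2 bases, G, G, C. It was present in 775 of 31365 windows of all genes (2.47%), and in 8 of the 296 windows at one-way shared anchors (2.70%), against 55 of 1390 at anchors with 1 loop (3.96%). The 8 windows held 7 distinct matches. Of these, 5 pointed into the anchor's loops and 2 pointed away from them. At anchors with 1 loop, 34 of 52 distinct matches (65.4%, 51.8% to 76.8%) pointed into the loop. A match describes these letters and is not a measured binding site. The windows of 6 of the 7 matches are printed because the direction of the letters can be set against the direction of the loops. Capitals mark the core, or its reverse complement where the match lies on the other strand of the window. Each window reads 5′ to 3′ on the strand of its gene.
Sox6os: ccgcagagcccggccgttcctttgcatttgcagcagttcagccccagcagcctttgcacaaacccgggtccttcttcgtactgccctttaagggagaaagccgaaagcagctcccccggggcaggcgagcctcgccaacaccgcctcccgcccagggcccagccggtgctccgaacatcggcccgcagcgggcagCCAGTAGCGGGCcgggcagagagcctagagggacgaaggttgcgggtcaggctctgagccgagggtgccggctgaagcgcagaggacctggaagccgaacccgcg
Cldn14: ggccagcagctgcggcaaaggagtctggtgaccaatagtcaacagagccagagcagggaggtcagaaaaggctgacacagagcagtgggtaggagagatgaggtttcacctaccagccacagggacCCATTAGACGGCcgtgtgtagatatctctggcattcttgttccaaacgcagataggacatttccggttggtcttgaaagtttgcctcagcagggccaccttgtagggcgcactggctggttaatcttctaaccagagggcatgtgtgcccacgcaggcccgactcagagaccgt
Gm39902: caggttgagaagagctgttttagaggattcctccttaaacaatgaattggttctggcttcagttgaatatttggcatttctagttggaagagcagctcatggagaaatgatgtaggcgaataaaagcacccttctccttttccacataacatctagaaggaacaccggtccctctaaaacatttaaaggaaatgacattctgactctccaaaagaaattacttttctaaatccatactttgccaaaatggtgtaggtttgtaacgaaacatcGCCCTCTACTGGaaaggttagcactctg
Mterf1a: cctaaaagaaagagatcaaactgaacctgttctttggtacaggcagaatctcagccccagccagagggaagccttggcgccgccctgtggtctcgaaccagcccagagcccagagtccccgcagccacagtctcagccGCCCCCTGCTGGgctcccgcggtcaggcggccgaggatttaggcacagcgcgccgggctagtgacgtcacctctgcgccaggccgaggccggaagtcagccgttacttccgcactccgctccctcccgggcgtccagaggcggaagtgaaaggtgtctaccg
Tbx3os2: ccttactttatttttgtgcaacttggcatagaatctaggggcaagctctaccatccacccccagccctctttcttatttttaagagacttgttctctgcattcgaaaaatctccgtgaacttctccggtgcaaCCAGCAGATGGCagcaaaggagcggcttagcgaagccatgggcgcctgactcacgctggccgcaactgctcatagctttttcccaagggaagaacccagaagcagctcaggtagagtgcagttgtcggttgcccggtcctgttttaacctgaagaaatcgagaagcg
Gm2921: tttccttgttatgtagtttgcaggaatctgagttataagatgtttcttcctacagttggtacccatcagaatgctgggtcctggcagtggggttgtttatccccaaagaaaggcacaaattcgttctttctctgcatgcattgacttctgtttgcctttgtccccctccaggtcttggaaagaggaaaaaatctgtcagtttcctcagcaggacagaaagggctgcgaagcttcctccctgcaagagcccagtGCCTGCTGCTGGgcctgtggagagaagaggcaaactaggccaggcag

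The Sox6os window (chr7:116031729-116032028, plus strand) belongs to a lncRNA at an anchor with 4 loops toward lower coordinates, and its match pointed away from them. The match in the Cldn14 window (chr16:93929518-93929817, minus strand) likewise pointed away from the anchor's 3 loops toward higher coordinates. Cldn14 encodes a claudin, a tight junction protein. The other matches printed pointed into the loops. They lie in the windows of Gm39902 (chr2:106955531-106955830, plus strand), Mterf1a (chr5:3893884-3894183, minus strand), Tbx3os2 (chr5:119691169-119691468, minus strand) and Gm2921 (chr8:57799618-57799917, plus strand). Each of these 4 anchors had 2 loops. Mterf1a encodes a mitochondrial transcription termination factor, and the others are lncRNAs.

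Loops were shared in one direction far more often than in both. Of the 1045 anchors with 2 or more loops, 919 ran one way (87.9%, 85.8% to 89.8%). Among anchors with 3 or more loops the count was 109 of 134, and with 4 or more it was 19 of 24. The direction was balanced, with 451 toward higher coordinates (49.1%, 45.9% to 52.3%) and 468 toward lower. Of the 919, 810 had 2 loops, 90 had 3, 16 had 4, 2 had 5 and 1 had 7. They took part in 1826 of the 4858 loops (37.6%), and 145 loops had a one-way shared anchor at both ends. By chromosome, they made up between 7.95% of the merged anchors (chromosome 7) and 13.3% (chromosome 12).

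Within an anchor the loops were nested. The shortest loop had a median span of 250 kb (quartiles 170 and 400 kb) and the longest 550 kb (390 and 840 kb), measured between anchor midpoints. The ratio of longest to shortest had a median of 1.94 (quartiles 1.46 and 2.86) and reached 37.1. All 919 had as many far anchors as loops, while 66 had 2 far anchors within 50 kb of each other. Merging joined anchors of different pixel sizes in many cases, since 428 of the 919 had loops of 1 pixel size. In 34, the own anchors of the loops did not all share a base and were joined through another. Of anchors named in the text, these include those at Evx2 and Hoxd13, Foxo1, Lhx5, Foxa1, Rpl30 and Cldn14. They also include chr6:81970001-82000000 and chr15:73020001-73050000. Loops of one-way shared anchors were longer than loops between 2 anchors with 1 loop each, with a median of 380 kb (95% interval 360 to 400 kb) against 290 kb (270 to 300 kb). At 10 kb pixels the medians were 395 kb (380 to 420 kb) and 310 kb (290 to 320 kb). At 25 kb pixels they were 650 kb (575 to 725 kb) and 600 kb (525 to 675 kb), intervals that overlap. The greater length was not particular to one-way sharing. Loops of anchors with loops to both sides, where neither anchor was one-way, had a median of 360 kb (310 to 400 kb). Their medians were 330 kb (290 to 380 kb) at 10 kb pixels and 825 kb (600 to 1175 kb) at 25 kb.

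**Figure D1:**
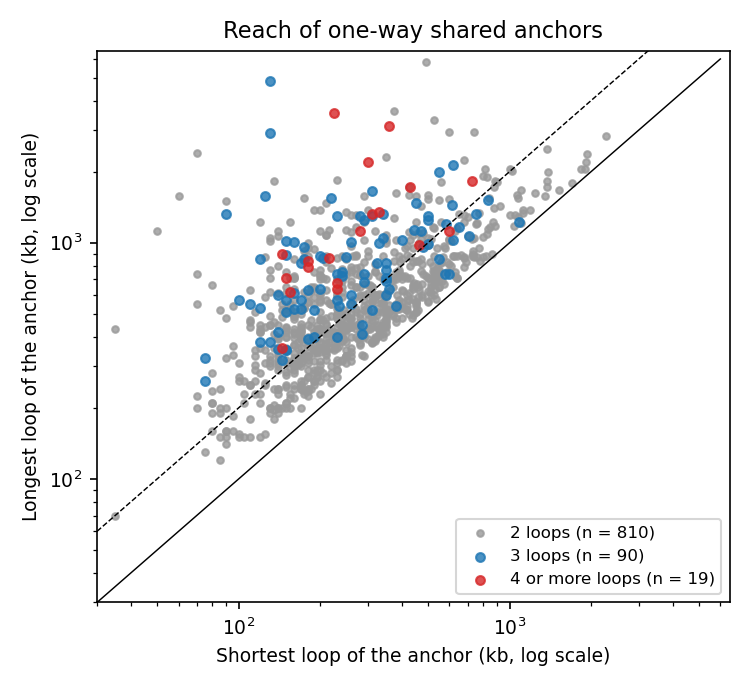
Shortest (x axis) against longest loop (y axis) of each of the 919 one-way shared anchors, in kb on log scales, coloured by number of loops; the solid line marks equal spans and the dashed line a ratio of 2. Points lie above the solid line by construction, and the largest ratio, 37.1, belongs to an anchor whose shortest loop spans 130 kb.

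The anchor with most loops, chr3:113075001-113100000, held no protein-coding gene end and sent 7 loops toward lower coordinates. Their spans were 225, 525, 1100, 1700, 2400, 3175 and 3550 kb. The authors' peak score, a value of the loop caller with no unit, was 3.34, 4.47, 4.81, 4.65, 5.89, 5.98 and 7.69 in the same order. Scores were thus higher in the longer loops of this anchor, with 1 step down at the fourth loop. All 7 loops were called at 25 kb pixels.

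The anchor chr2:74650001-74675000 holds ends of Evx2 and Hoxd13. Both encode homeodomain transcription factors, and Hoxd13 patterns digits and genitalia. Its 5 loops ran toward lower coordinates, with spans of 360, 590, 705, 1080 and 3125 kb and scores of 3.98, 4.62, 3.79, 3.80 and 9.63. They were called at pixels of 10, 5, 5, 10 and 25 kb in that order, and scores depend on pixel size. Their own anchors did not all share a base. The longest and highest scoring loop ended at chr2:71525001-71550000, where Dlx1 and Dlx2 have gene ends. These are distal-less homeobox genes of forebrain interneurons, and Metap1d, a mitochondrial methionine aminopeptidase gene, ends there too. Farther along the Hoxd cluster, chr2:74710001-74720000 held an end of Hoxd3 and sent 3 loops toward higher coordinates. The Hoxd3 record runs on past this anchor to 74748271, so the anchor lies inside the cluster. They spanned 250, 420 and 870 kb and scored 3.90, 10.4 and 6.08. The 2 anchors lie 35 kb apart and their loops run away from each other.

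The remaining anchor with 5 loops, chr16:42170001-42200000, holds an end of Lsamp, which encodes an immunoglobulin-family adhesion protein of neurons. Its loops ran toward higher coordinates over 725, 1200, 1350, 1610 and 1825 kb, with scores of 3.76, 3.30, 3.36, 4.49 and 3.27. None of its far anchors held a gene end. Bcl6, a transcriptional repressor of germinal centre B cells, has an end at chr16:23980001-23990000. That anchor sent 4 loops toward higher coordinates, of 330, 780, 1080 and 1350 kb, scoring 3.78, 3.90, 6.57 and 3.78. Again no far anchor held a gene end.

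Of the 16 anchors with 4 loops, the 7 whose lowest score was highest are given here, Bcl6 among them, and the other 6 of these had no gene end of their own. The anchors with 4 loops not given here include that of Sox6. The anchor chr6:51200001-51210000 ran 230, 320, 380 and 640 kb toward higher coordinates, with scores of 4.37, 4.55, 6.67 and 4.76. Its 2 nearest far anchors held ends of Nfe2l3, a leucine zipper transcription factor gene, and of Snx10, a sorting nexin gene. From chr6:58760001-58770000, loops of 180, 620, 680 and 790 kb ran toward lower coordinates, scoring 4.19, 4.56, 6.15 and 4.89. Abcg2, an efflux transporter gene, lay at the nearest far anchor and Vmn1r25, a vomeronasal receptor gene, at the farthest. At chr13:20300001-20325000 the loops spanned 180, 630, 725 and 840 kb and scored 5.35, 4.44, 3.90 and 5.13. The far anchors at 725 and 840 kb held ends of Aoah, which encodes an enzyme that inactivates lipopolysaccharide, and of the odorant receptor gene Olfr1368. The anchors chr2:28410001-28420000, chr6:81970001-82000000 and chr15:73020001-73050000 held no gene end at either side of any loop, and their 12 loops scored between 3.75 and 5.66. Scores did not follow span in one direction across these 10 anchors.

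**Figure D2:**
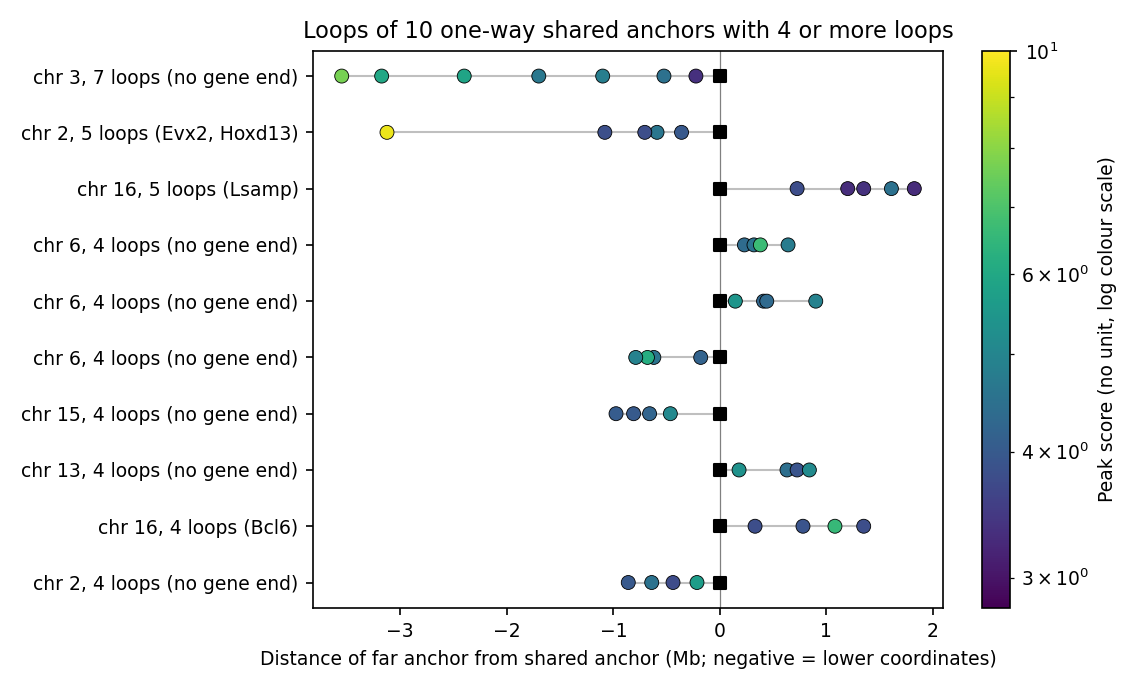
Loops of 10 of the 19 one-way shared anchors with 4 or more loops (of those with 4, the 7 whose lowest score was highest): each row is an anchor (black square at 0), and each circle a far anchor at its distance in Mb, negative toward lower coordinates, coloured by the peak score (no unit, log colour scale). The 7 loops of the chromosome 3 anchor reach 3550 kb and the 5 of the Evx2 and Hoxd13 anchor reach 3125 kb.

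The longest loop of any one-way shared anchor spanned 5800 kb. It joined chr3:158025001-158050000, with ends of Lrrc40 and of the splicing factor gene Srsf11, to an anchor with ends of Fubp1 and Nexn. The other loop of this anchor spanned 490 kb and ended at Zranb2. The scores were 4.11 and 3.56. Next came chr10:58425001-58450000, at the nucleoporin gene Ranbp2, with a loop of 4825 kb that ended at the histone chaperone gene Asf1a and scored 6.80. On chromosome 5, chr5:95925001-95950000 reached 3600 kb with a score of 6.19, and no gene end lay at its shared or far anchors. The anchor at Cryba2 and Fev, chr1:74875001-74900000, reached 3325 kb with a score of 5.01. Fev is a transcription factor of serotonin neurons.

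Gene ends were somewhat more frequent at one-way shared anchors than at anchors with 1 loop. Among anchors of the same width, 5, 10 or 25 kb, the difference was within counting error. A gene end is the first or last base of a protein-coding RefSeq record (GRCm38.p6) inside the merged anchor, and 19.6% of all merged anchors held one. The count was 210 of 919 one-way shared anchors (22.9%, 20.3% to 25.7%), 33 of 126 anchors with loops to both sides (26.2%, 19.3% to 34.5%) and 1428 of 7462 anchors with 1 loop (19.1%, 18.3% to 20.05%). One-way minus 1 loop was 3.71 percentage points (0.96 to 6.67), and one-way minus both sides was −3.34 points (−12.0 to 4.11). Among anchors 10 kb wide the shares were 20.1% and 19.2%, a difference of 0.87 points (−2.32 to 4.39). At 25 kb they were 30.1% and 28.8%, a difference of 1.28 points (−5.43 to 8.61). Per Mb of anchor, one-way shared anchors held 19.2 gene ends counted as genes, against 21.3 at anchors with 1 loop. The 919 include 618 anchors of 10 kb, 196 of 25 kb, 55 of 5 kb and 48 of 30 kb.

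Overlap with any part of a protein-coding gene ran the other way. It was found at 48.2% of one-way shared anchors and 53.0% of anchors with 1 loop, a difference of −4.80 points (−8.21 to −1.37). At 10 kb width the difference was −6.97 points (−11.1 to −2.76), while at 25 kb both shares were 53.6%. Gene starts, known for 16457 of 20665 autosomal protein-coding records, lay at 12.5% of one-way shared anchors and 9.07% of anchors with 1 loop. That difference was 3.44 points (1.35 to 5.82), and 2.23 points (−0.16 to 5.06) at 10 kb width. An end of a lncRNA record lay at 157 of 919 (17.1%) against 913 of 7462 (12.2%), a difference of 4.85 points (2.43 to 7.52). For lncRNAs the difference was still 3.70 points (0.91 to 6.88) at 10 kb width. The lncRNA difference was within counting error at 25 kb (5.21 points) and at 5 kb (−2.06 points). Among anchors 10 kb wide, one-way shared anchors thus overlapped protein-coding genes less often than anchors with 1 loop. They held lncRNA ends more often, both beyond counting error. Neither difference was shown to be particular to one-way sharing. Of anchors with loops to both sides, 28 of 126 held a lncRNA end (22.2%, 15.8% to 30.2%). One-way minus both sides in gene overlap was −4.97 points (−14.0 to 4.29), and −1.88 points (−14.3 to 10.4) at 10 kb width.

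**Figure D3:**
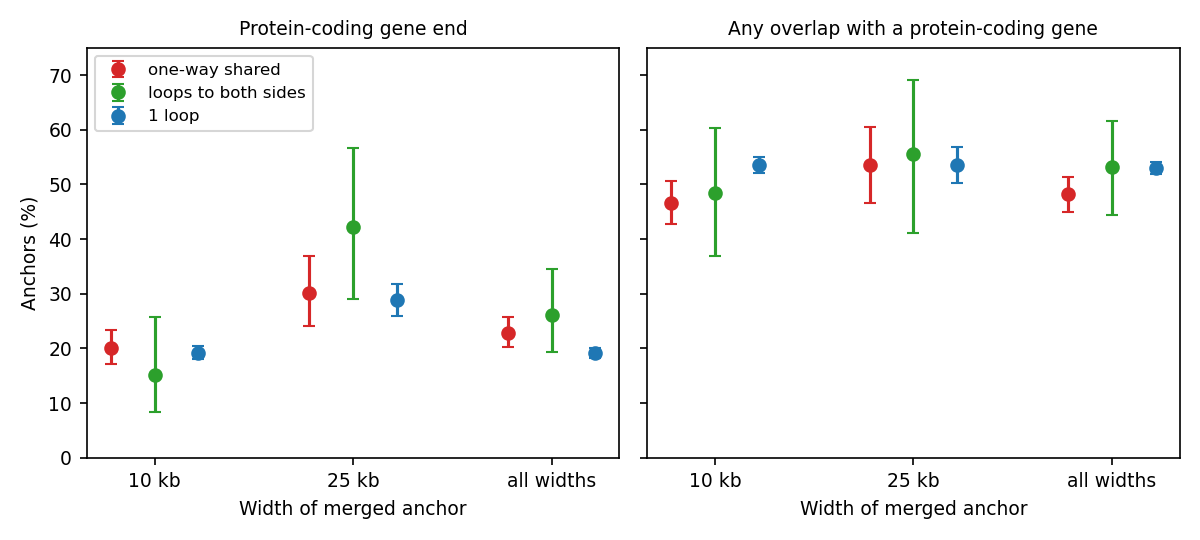
Percent of merged anchors with a protein-coding gene end (left) and with any overlap with a protein-coding gene (right), for one-way shared anchors, anchors with loops to both sides and anchors with 1 loop, by merged width; bars are 95% Wilson intervals. Gene end shares of the one-way shared and 1 loop classes lie within 1.28 points of each other at 10 and 25 kb. Overlap at 10 kb is lower in the one-way shared class than in the 1 loop class.

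The far anchors were no richer in genes. The 919 anchors had 1932 far anchors, of which 368 held a gene end (19.05%, 17.4% to 20.9%). Far anchors that themselves had 1 loop held one in 17.9%, against 19.4% of anchors with 1 loop joined to another such anchor, a difference of −1.52 points (−3.61 to 0.67). A gene end lay at the shared anchor and at least 1 far anchor in 96 of the 919, at the shared anchor only in 114, at far anchors only in 227 and at neither in 482. A far gene end was present for 96 of 210 anchors with a gene end (45.7%) and for 227 of 709 without (32.0%), a difference of 13.7 points (6.22 to 21.2). By width, this difference was 7.13 points (−1.95 to 16.7) at 10 kb and 24.5 points (9.29 to 38.2) at 25 kb. The difference was 7.55 points (−2.63 to 18.6) when anchors were merged within a pixel size only and 7.61 points (−0.95 to 16.7) with 5 and 10 kb pixels only, so that it was within counting error in both. Gene density along the chromosome is shared by both sides and its part in this difference was not tested.

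In 12 anchors the shared and every far anchor held gene ends. One of them, at Nkx2-1, is described with the triangles. Psmb6, a proteasome subunit gene, and Gltpd2 share chr11:70520001-70530000, which was joined to Chrne and Mink1 over 85 kb and to Zfp3 over 240 kb, with scores of 4.20 and 3.51. Chrne encodes a subunit of the muscle acetylcholine receptor and Mink1 a kinase. At chr5:137160001-137170000, ends of Muc3, a mucin gene, and Gm31160 were joined to Ache, the acetylcholinesterase gene, over 125 kb and to Zan, a sperm protein gene, over 310 kb. The Ache loop scored 12.5 and the Zan loop 4.04. Carmil1, an actin regulator gene at chr13:24275001-24300000, was joined to the histone genes H2ac1 and H2bc1 over 350 kb and to Trim38 over 500 kb, scoring 3.75 and 5.03. Ccdc80 at chr16:45090001-45100000 was joined to Gtpbp8 over 350 kb and to Boc, a hedgehog co-receptor gene, and Cfap44 over 610 kb. Of the remaining anchors of this kind, 5 held Macrod1, Grk5, Zfp941, Slc28a3, and the Lrrc40 and Srsf11 pair already described.

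Ends of Hox, other homeobox, Sox and forkhead genes lay at one-way shared anchors in larger shares than the ends of all genes, and those of olfactory and vomeronasal receptor genes in a smaller share. This was not particular to one-way sharing. At anchors of any class lay ends of 26.8% of Hox, 32.3% of other homeobox, 22.2% of Sox and 22.0% of forkhead genes. The shares were 2.20% for the receptor genes and 9.19% for all genes. Among all 20665 autosomal protein-coding genes, 243 had an end at a one-way shared anchor (1.18%) and 348 only at a far anchor of one (1.68%). The lists below were chosen with earlier results of these data known, so their shares are descriptions. In the Hox list, with Evx genes, 3 of 41 had an end at a shared anchor (7.32%, 2.52% to 19.4%). Homeobox genes outside the Hox clusters had 6 of 99 (6.06%, 2.81% to 12.6%), namely Cdx2, Dlx5, Lhx5, Nkx2-1, Nkx2-2 and Onecut1. Sox genes had 2 of 18 and forkhead genes 3 of 41. The counts were 1 of 5 for Gata, 1 of 15 for T-box, 1 of 5 for Tfap2 and 1 of 46 for bHLH differentiation factors. Pax genes had 0 of 9 and POU genes 0 of 14, where 3 counts would be 33.3% and 21.4% of the list, though Pax1 and Pax9 lay at far anchors.

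The other lists ranged from 0% to 6.45%. Signalling ligands had 2 of 69 at shared anchors, neuronal adhesion genes 4 of 121, clustered protocadherins 2 of 57 and pluripotency genes 2 of 40. Cohesin and CTCF genes had 1 of 26, cytosolic ribosomal protein genes 3 of 80, proteasome genes 2 of 38 and mitochondrial ribosomal protein genes 0 of 77 (3 counts would be 3.90%). Histone cluster genes had 4 of 62, all at 1 anchor, and zinc finger genes with Zfp symbols 6 of 388 (1.55%). Olfactory and vomeronasal receptor genes had 2 of 1452 (0.138%, 0.038% to 0.501%), below the 1.18% of all genes. The intervals of the neuronal adhesion, pluripotency, ribosomal, proteasome and histone lists lay above 1.18%, and those of the ligand, protocadherin and cohesin lists crossed it. Genes of a cluster share anchors, so the intervals of the Hox, histone, protocadherin and receptor lists are too narrow. Of all 1899 genes with an end at any anchor, 12.8% had it at a one-way shared one. By this measure the intervals lay above 12.8% for Sox genes (2 of 4, 15.004% to 85.0%), ribosomal protein genes (3 of 5, 23.1% to 88.2%) and proteasome genes (2 of 3, 20.8% to 93.9%). They held 12.8% for the other 18 lists, Hox (3 of 11), other homeobox (6 of 32) and forkhead (3 of 9) genes included.

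**Figure D4:**
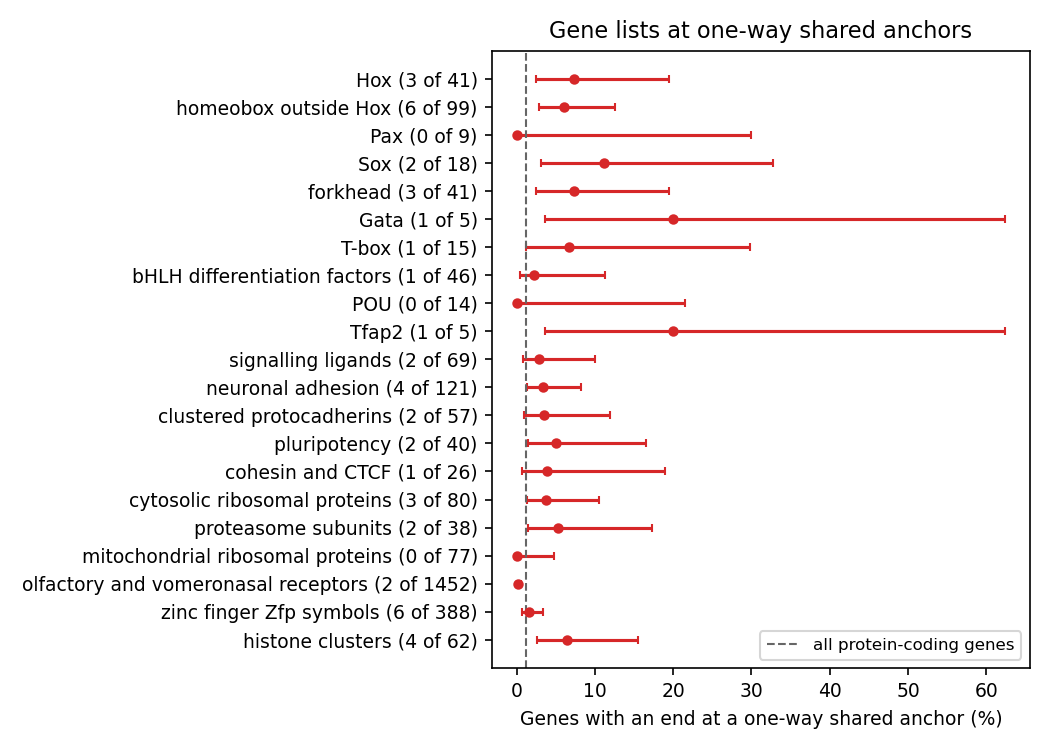
Percent of each list's protein-coding genes with an end at a one-way shared anchor, with 95% Wilson intervals and counts in the labels; the dashed line marks all protein-coding genes at 1.18%. Olfactory and vomeronasal receptors lie below the line. Among transcription factor lists, the intervals of Hox, other homeobox, Sox, forkhead, Gata, Tfap2 and, narrowly, T-box genes lie above it. Those of the bHLH, Pax and POU lists cross it.

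Among transcription factor genes, Sox2, required for pluripotency, has its end at chr3:34640001-34650000, with 2 loops toward higher coordinates of 460 and 840 kb that scored 3.32 and 3.80. The Sox2 record runs from 34649995 to 34652461, so only its first bases lie inside this anchor. Its placement, and its part in the Sox and pluripotency counts above, hang on the edge of the pixel. Sox6, a factor of cartilage and neurons, lay at chr7:116025001-116050000 with 4 loops toward lower coordinates of 600, 670, 820 and 1125 kb. Their scores were 3.41, 4.21, 3.36 and 4.47. Foxo1, a target of insulin signalling, had 3 loops toward higher coordinates from chr3:52250001-52275000. These spanned 585, 675 and 1200 kb and scored 5.81, 7.71 and 3.96, and the farthest ended at Nhlrc3 and Proser1. Neurog2, a proneural factor gene, lay at chr3:127625001-127650000, where loops of 125 and 310 kb toward higher coordinates scored 4.04 and 3.98.

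Tbx3, a T-box gene of limb and heart, lay at chr5:119675001-119700000 with loops of 920 and 1425 kb toward lower coordinates, scoring 5.34 and 3.997. The nearby Lhx5, a LIM homeobox gene of the forebrain, lay at chr5:120420001-120450000 with 3 loops of 140, 225 and 600 kb, scoring 3.63, 3.10 and 7.57. Cdx2, which specifies trophectoderm and hindgut, had loops of 405 and 625 kb toward lower coordinates from chr5:147300001-147325000, scoring 7.46 and 3.79. Gata2, a blood progenitor factor, had loops of 300 and 660 kb scoring 4.03 and 4.06, the shorter to Ruvbl1. Tfap2a, a neural crest factor, had loops of 825 and 1090 kb scoring 3.13 and 5.65. In these 5 loci the longest loop scored highest at Lhx5, Gata2 and Tfap2a and lowest at Tbx3 and Cdx2. Scores depend on pixel size, and only Gata2 had loops of 1 pixel size, 10 kb. The longest loop was of 25 kb pixels at Tbx3 and Cdx2 and of 10 kb pixels at Lhx5 and Tfap2a.

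Dlx5 had an end at each of 2 touching anchors, chr6:6870001-6880000 and chr6:6880001-6890000. Their loops all ran toward lower coordinates, of 870 and 1230 kb from the first and 610 and 1020 kb from the second. The scores were 4.40 and 6.10, and 2.98 and 4.17. Dlx5 is 1 of 4 genes with ends at 2 one-way shared anchors, and the other 239 had ends at 1.

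Signalling and adhesion genes gave a few further members. Wnt7a had loops of 125 and 250 kb, scoring 7.99 and 3.73, from chr6:91410001-91420000. Fgf18 had loops of 190 and 390 kb, scoring 3.81 and 3.54, from chr11:33140001-33150000. Wnt5a and Fgf15 lay at far anchors, the first over 700 kb (score 5.01) and the second over 315 kb from an anchor at Ano1 (score 5.81). Slitrk3, a synaptic adhesion gene, reached 2940 kb with a score of 6.35 and 740 kb with a score of 3.81. Tenm3, a teneurin gene, reached 2050 kb with a score of 5.34 and 810 kb with a score of 2.88.

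Clustered gene families and ribosomal protein genes were also present. At chr13:21780001-21790000 the histone genes H1f5, H2ac22, H2bc22 and H3c11 shared an anchor with loops of 35 and 70 kb toward lower coordinates, scoring 5.20 and 6.08. The longer ended at H2ac13, H2bc13 and H3c10. In the protocadherin clusters, which encode neuronal cell surface proteins chosen by alternative promoters, the anchor at Pcdhb21 and Pcdhb22 was joined over 170 kb to Pcdhga4 and Pcdhgb2, with a score of 5.10. Its second loop spanned 340 kb and scored 5.78. Ribosomal protein genes were represented by Rpl37a, joined over 140 kb to Igfbp5 with a score of 7.01, by Rpl17 with loops of 180 and 560 kb, and by Rpl30 with loops of 130, 270 and 2925 kb. Ctcfl, the germ line paralogue of Ctcf, was joined over 105 kb to Spo11, the meiotic double-strand break gene, with a score of 4.05.

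Gene starts at one-way shared anchors pointed into the loops in 77 of 131 cases (58.8%, 50.2% to 66.8%). At anchors with 1 loop the count was 372 of 718 (51.8%, 48.2% to 55.4%), and the difference of 6.97 points had an interval of −2.33 to 15.8. Sox2, Hoxd3, Evx2, Foxa1, Foxa2, Foxo1, Neurog2, Cdx2, Gata2, Sox6, Tfap2a, Wnt7a and Fgf18 are annotated on the strand that reads into the loops. Hoxd13, Nkx2-1, Nkx2-2 and Onecut1 read away from the loops at their starts. Among the other genes named, those reading away included Bcl6, Fev, Cryba2, Ranbp2, Mterf1a, Igfbp3, Igfbp5, Cldn14, Muc3, Lrrc40 and H2bc22. Those reading into the loops included Rpl37a, Cd247, Srsf11, Psmb6, Grk5, Macrod1, H1f5, H3c11 and H2ac22. These are annotated strands, and transcription was not measured. A preference of one-way shared anchors over anchors with 1 loop was thus not detectable at these counts.

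One-way shared anchors that lay close together without touching mostly ran apart. Among pairs of adjacent one-way shared anchors up to 100 kb apart that did not touch, the loops ran away from each other in 42 of 51 (82.4%, 69.7% to 90.4%), the same way in 9 and toward each other in 0, where 3 counts would be 5.88%. Among adjacent anchors with 1 loop at the same distance, 966 of 2314 pairs (41.7%, 39.8% to 43.8%) ran away from each other. Among one-way shared anchors farther apart the counts were 44 of 163 (27.0%, 20.8% to 34.3%) at 100 to 500 kb and 167 of 670 (24.9%) beyond. Touching pairs were different, with 3 of 16 away and 13 the same way, as at Dlx5. None of the 51 one-way pairs up to 100 kb apart was joined by a loop, against 191 of the 2314 pairs of anchors with 1 loop. The rule chose one-way shared anchors by the directions of their loops, and anchors with 1 loop passed no such rule. This comparison was also chosen after the values were seen, so its shares are descriptions and test nothing.

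Beside the Hoxd pair, 2 anchors 20 kb apart at Fgf18 ran away from each other, as did 2 anchors 30 kb apart at Foxo1, 25 kb apart at Igfbp1 and Igfbp3, and 75 kb apart at Slitrk3. Igfbp1 and Igfbp3 encode binding proteins of insulin-like growth factors. At Nkx2-2, a homeobox gene of ventral neural tube and pancreas, the pair touched. The anchor chr2:147175001-147180000 held the gene end and sent loops of 215 and 555 kb toward lower coordinates, scoring 5.29 and 4.09. An annotated start of the gene lay in the adjoining anchor, while its record ran on to 147195434, past that anchor. This anchor, chr2:147180001-147190000, sent loops of 175 and 860 kb toward higher coordinates, to Pax1 with a score of 5.58 and to Foxa2 with a score of 10.1. Foxa2 is a pioneer factor of endoderm, and Pax1 acts in the axial skeleton and thymus. With anchors within 5 kb also merged, 43 of the 919 (4.68%) took loops on both sides and 876 stayed one way. Over all anchors, that setting gave 1285 one-way and 268 with loops to both sides, against 919 and 126 as reported. One-way anchors then made up 82.7% of those with 2 or more loops, against 87.9%.

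Among anchors whose 2 loops were both of 10 kb pixels, the longer loop tended to have the higher peak score. Over all pixel sizes, the longer loop scored higher in 432 of 810 anchors with 2 loops (53.3%, 49.9% to 56.7%). The shortest loop scored highest in 410 of all 919 (44.6%, 41.4% to 47.8%). Scores depend on pixel size, so anchors whose 2 loops were both of 10 kb pixels were compared. The longer loop had the higher score in 210 of 323 (65.0%, 59.7% to 70.0%), and the median difference, longer minus shorter, was 0.38 (0.21 to 0.53). The counts were 29 of 54 at 5 kb pixels and 14 of 26 at 25 kb. With the authors' regional score, which covers the surroundings of the peak, the share at 10 kb was 52.3% (46.9% to 57.7%). The peak pixel value, a signal of the contact map, was higher in the longer loop in 134 of 323 (41.5%, 36.2% to 46.9%), the opposite direction. Across loops at 10 kb pixels, span and peak score had a rank correlation of 0.29 in the 1136 loops of one-way shared anchors and 0.23 in the 1711 loops between anchors with 1 loop. These loops share the contact map and caller. The median peak score over all pixel sizes was 4.20 (4.15 to 4.26) for loops of one-way shared anchors and 4.11 (4.07 to 4.16) for loops between anchors with 1 loop.

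**Figure D5:**
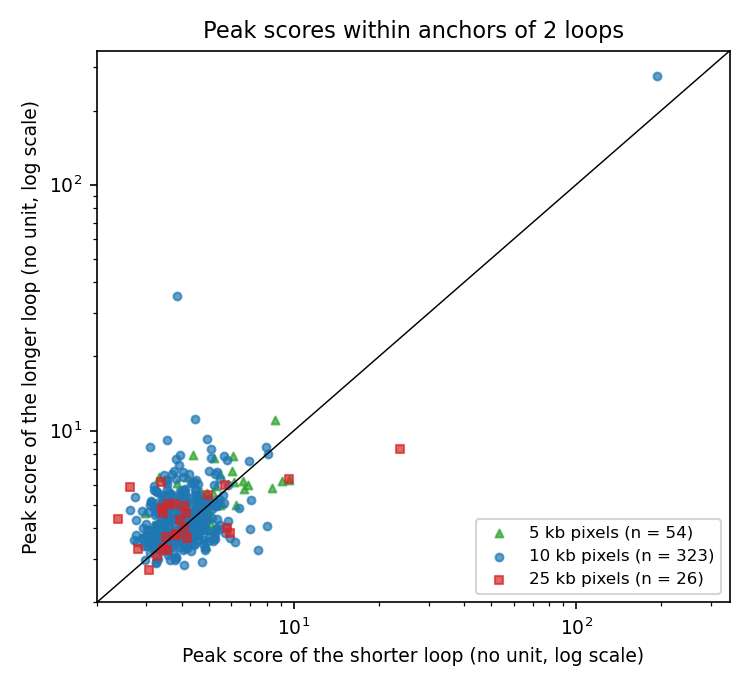
Peak score (no unit, log scales) of the longer against the shorter loop at each one-way shared anchor with 2 loops of the same pixel size, marked by pixel size; the line marks equal scores. At 10 kb pixels 210 of 323 points lie above the line, and the point at 193.5 and 276.6 belongs to an anchor on chromosome 4.

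Scores above 100 came from 2 touching anchors on chromosome 4. The anchor chr4:121990001-122000000 sent loops of 290 and 670 kb toward lower coordinates with scores of 193.5 and 276.6. The adjoining chr4:122000001-122025000 sent loops of 630 and 750 kb toward higher coordinates with scores of 293.2 and 23.7. The only gene end at their shared and far anchors was of Gm12888, at a far anchor of the first.

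A listed loop between 2 far anchors of the same anchor closes a triangle and was found for 21 of 919 (2.29%, 1.499% to 3.47%). The middle anchor of a triangle has loops to both sides, and 79 of the 919 had a far anchor of that kind. For the others the classing fixed the outcome, so the share is a description. Such a triangle is seen from both of its outer anchors where both are one-way. On chromosome 12, Nkx2-1, a factor of thyroid, lung and forebrain, lay at chr12:56530001-56540000 and was joined toward higher coordinates to Pax9 over 160 kb, to Slc25a21 over 660 kb and to Foxa1 and Ttc6 over 1010 kb. The scores were 5.67, 3.63 and 5.04. The Foxa1 anchor, chr12:57540001-57550000, was itself joined to Pax9 over 850 kb with a score of 8.57, so that the 3 loci were linked pairwise in the list. Its remaining loop spanned 260 kb and scored 5.87. Pax9 acts in pharyngeal pouches and teeth. Other triangles had an outer anchor at Sox2, whose far anchor chr3:35475001-35500000 also ran a loop of 375 kb back, and at Cd247 and Creg1, joined to Ildr2 over 525 kb. The anchor printed above with Cldn14 reached Sim2, a neural bHLH-PAS factor gene, in another triangle.

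The regions under these loops held about as many genes as other loops for their length. Between the outermost anchors lay a median of 2 whole protein-coding genes, and 84 of 919 regions held none (9.14%). Loops between anchors with 1 loop held a median of 1, and 773 of 2837 held none (27.2%), but they were shorter. Over all regions the density was 5.30 genes per Mb for one-way shared anchors and 5.07 for loops between anchors with 1 loop. In 12 anchors the shared and all far anchors lay within 1 gene. The longest of these sets was in Trpm3, a cation channel gene, with loops of 340 and 550 kb scoring between 3.40 and 9.45. Others were in Pde1c and Pde4d, phosphodiesterase genes, Ptprd, a receptor phosphatase gene, Syn3, a synapsin gene, and Tenm4, with loops of 140 and 390 kb.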

How the data were processed

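Micro-C was made in 2 siControl samples, for which the authors deposited 1 loop list with 15 columns and no header. Positions are in mm10 and Juicer 1.5.6 was among the tools, per the submitters' processing notes. Which program called loops, at what thresholds and on pooled or separate reads, is not given in the sources used here. Deposited peak and regional scores, the deposited fraction that behaves like a probability and the deposited signal of the peak pixel are the authors' values, and these meanings were inferred. The 2 anchors were turned to 1-based coordinates, merged where they shared 1 bp and classed by loop direction with Python 3.11.15, numpy 2.4.6, pandas 2.3.3, scipy 1.17.1 and matplotlib 3.10.9. The steps were tested on simulated data. Genes came from RefSeq (GRCm38.p6), whose gene table gives no strand. Starts and strands came from the promoter table, which covers part of the genes and holds none on chromosome 18, so starts were not the main measure. Anchor sequence was not used here. 1 loop of a named anchor is not reported here.

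Members and the 21 gene lists were chosen with earlier results of these data known, and newer histone symbols were added to their list later. Named genes lie at the 10 anchors with most loops (ties by the higher lowest score), at the 5 with the longest loop, at up to 10 with gene ends on both sides of every loop, at promoter windows with the CTCF core, or are up to 3 shared and 2 far genes of each list by peak score. A few more were named after their values were seen: Nkx2-2 and Onecut1, the pairs of neighbours, the triangles, the genes that hold all anchors and the chromosome 4 anchors. No test was run because the list has no values per sample. Alternatives changed the merging, pixel size, loop number, scores and gene position.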

Additional observations from a re-analysis of the deposited data

How the results depend on the processing

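No paired analysis was possible because both replicates stand behind each loop without values of their own, and no replicate could be left out. Of 93 alternatives, 54 stayed close to the value reported, 36 moved away from it and 3 reversed a difference whose interval excluded 0. Close meant within the counting interval. The number of one-way shared anchors has no interval and was judged by its ratio to 919, a looser rule. By it 1285 (anchors within 5 kb merged), 696 (5 and 10 kb pixels only) and 873 (far anchors within 50 kb counted once) were counted as close. One-way minus both sides, whose interval held 0, also changed sign, to 2.34 points within a pixel size only, 4.48 points at 5 and 10 kb pixels only and 0.61 points for starts only. The 3 results on neighbours, longer loops and far gene ends, with their alternatives, and 10 kb loops by regional score, were chosen after seeing the data. The one-way minus 1 loop difference in gene ends reversed to −0.36 points within a pixel size only, to −4.80 with any overlap and to −0.10 in 10 kb around the midpoint. With merging within a pixel size only, 484 anchors were one-way, 19.01% had a gene end, 17.1% of far anchors had one, the span ratio was 1.84, the shortest loop scored highest in 36.0% (44.6% as reported), and 0.41% had joined far anchors. With 3 or more loops, the values were 109 anchors, 26.6%, a difference of 7.47 points, a ratio of 3.09, 29.4% and 6.42%, and the 1 pair of close neighbours ran apart (100%). With more loops per anchor, an even split would also give the shortest loop a smaller share. With loops above the median score of their pixel size, 335 anchors remained, 21.3% of far anchors had a gene end, 50.4% scored highest at the shortest loop, 0.60% had joined far anchors and 66.7% of close neighbours ran apart. Merging within 5 kb gave 28.6% with a gene end, a difference of 9.57 points, 21.2% of far anchors and 8.02% with joined far anchors. At 5 and 10 kb pixels only, 19.97% had a gene end, one-way minus both sides was 4.48 points and 1.15% had joined far anchors. Any overlap gave 48.2% of shared and 53.3% of far anchors, and a difference of 3.10 points in far overlap with and without shared overlap. Starts only gave 12.5% and 9.11%. All gene records gave 40.6%, 33.2% and a difference of 8.42 points from anchors with 1 loop, and 10 kb around the midpoint gave 20.2%. By regional score the shortest loop scored highest in 49.7%, and the longer loop of 10 kb pixels scored higher in 52.3%. The causes were not tested. Depth is unknown, so no detection limit for loops can be given.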

Other observations

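Among small RNA genes, 7 of 919 one-way shared anchors held an end of a miRNA record (0.762%, 0.369% to 1.56%), against 36 of 7462 anchors with 1 loop (0.482%, 0.349% to 0.667%). The intervals overlap. The 7 include Mir680-3 at the anchor chr12:35170001-35200000, which sent 4 loops toward lower coordinates of 430 to 1725 kb with scores between 2.87 and 7.23, and Mir3058 at chr10:95550001-95560000, with 3 loops of 310 to 520 kb and scores between 4.80 and 6.03. Pseudogene ends lay at 53 of 919 (5.77%, 4.44% to 7.47%) against 302 of 7462 (4.05%, 3.62% to 4.52%).

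Once in the list, 2 adjacent one-way shared anchors toward higher coordinates were joined to the same 2 anchors toward lower coordinates. On chromosome 10, chr10:122550001-122560000 was joined to chr10:123000001-123010000 over 450 kb and to chr10:123090001-123100000 over 540 kb, with scores of 4.76 and 3.32. The anchor chr10:122800001-122810000 was joined to the same 2 over 195 and 290 kb, with scores of 5.50 and 4.19. None of the 4 anchors held a protein-coding gene end.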
